A study of Homo sapiens with 6 samples.

Results

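The endoplasmic reticulum (ER) genes described here are the 46 protein-coding genes that bring nascent secretory proteins to the ER membrane, pass them through it, glycosylate them and fold them in the lumen. They were chosen by gene symbol from the 68201 genes of the count table, and 48 gene IDs carried these symbols, since HYOU1 and CANX each have an alternative copy, neither of which had a count. The members were 8 genes of the signal recognition particle (SRP) and its receptor, 10 of the translocon, 5 of signal peptidase, 8 of oligosaccharyltransferase, 13 of lumenal folding and 2 of ER-associated degradation. RNA came from untreated K562 cells, a human line that grew out of a chronic myelogenous leukaemia and that the labels give as WT. There were 2 groups of 3 libraries, one group from whole cells (WC) and the other from the extracellular vesicles (EVs) that size exclusion chromatography recovered from the medium of those cells. Total RNA was reverse-transcribed from the poly(A) tail, amplified and read without fragmentation on nanopore flow cells. The study reports that most reads of both groups did not cover the full annotated transcript, and that a smaller share did so in EVs. The study's methods state that the WC and EV libraries of a replicate came from the same cultures and shared a flow cell. The comparison of EVs with WC asks which mRNAs are found in vesicles at another share than in the cells that released them.

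A signal sequence that emerges from the ribosome is bound by SRP, which docks on its receptor at the ER and hands the ribosome to the SEC61 channel. Signal peptidase then removes the signal sequence, oligosaccharyltransferase attaches a preformed glycan to asparagine residues, and the trimming of glucose from that glycan governs cycles of binding to calnexin and calreticulin while protein disulphide isomerases pair cysteines. Proteins that fail to fold are passed back to the cytosol and degraded, and the mRNAs of membrane and secretory proteins, most of these members among them, are themselves translated at the ER surface.

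The libraries held 2480560 to 3178211 counts in WC and 560157 to 881338 in EVs, and the members took 0.471% to 0.521% of the counts of a WC library and 0.246% to 0.283% of an EV library. In both groups the counts summed over genes exceed the mapped reads that the study lists, so a read may have been counted at more than one gene or place, and a count is not always a separate read. Levels below are CPM, a gene's reads relative to the library size as scaled by the trimmed mean of M-values (TMM), and differences are log2 fold changes of EV over WC with their standard error (SE). "Rose" and "fell" refer to an adjusted p under 0.05 in the quasi-likelihood test of edgeR, with p-values adjusted by Benjamini-Hochberg over all 8716 genes that passed its filter on low counts, with n = 3 libraries per group. The scaling sets the zero of every fold change: with total counts in place of TMM the median over all tested genes moved from -0.13 to -0.78, while the median of the members relative to that of the 6768 tested mRNAs was -0.20 under both. A lower level in EVs does not tell whether fewer vesicles carried an mRNA or each carried less. The cDNA was not fragmented, so a count need not grow with transcript length. Levels per kilobase can therefore order genes otherwise than CPM do. Of 8 genes that mark K562 cells 7 passed the filter, with GATA1 at 99.2 ± 13.6 CPM in WC and 106 ± 23.3 CPM in EVs (SD, n = 3), while HBG2 (4.30), TAL1 (2.25) and HBG1 (0.75) rose and TFRC (-1.11) fell. Of 10 markers of other cell types EPCAM and CD3D passed and CD79A, ALB and COL1A2 had no read. EPCAM, at 73.6 ± 19.6 CPM in WC and 39.9 ± 14.4 CPM in EVs, fell by 0.96 on the log2 scale, and its part in the members' results was not tested.

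Of the 46 members 41 passed the filter, of which 16 fell, 5 rose and 20 did neither. Among all tested genes 21.4% fell and 22.8% rose, and among the tested mRNAs 22.2% fell and 14.9% rose. The median log2 fold change was -0.44 over the tested members and -0.24 over the tested mRNAs. The 5 that rose were SRP14, SEC61B, SEC61G, SSR2 and HSP90B1. The 16 that fell were SRP54, SPCS2, SPCS3, RPN1, RPN2, DDOST, STT3A, HSPA5, CALR, CANX, UGGT1, GANAB, PDIA4, P4HB, ERLEC1 and SEL1L. With total counts in place of TMM 30 members fell and 0 rose (1 rose at an unadjusted p under 0.05), against 51.6% and 12.2% of all tested genes, and SRP14, SEC61B and SEC61G then had negative fold changes. At a stricter limit, a log2 fold change of at least 2 in size with an adjusted p of at most 0.01, DDOST, UGGT1, GANAB, PDIA4 and P4HB were enriched in WC, as were 5.93% of all tested genes and 5.07% of the mRNAs. No member was enriched in EVs by edgeR or DESeq2, where edgeR called 4.53% of all tested genes and 1.64% of the mRNAs. All 3 EV libraries lay below all 3 WC libraries for 21 of the 41 tested members and above them for 7, while this held for 30.3% and 24.9% of all tested genes and 32.5% and 17.5% of the tested mRNAs. A fit with the replicate number as a block called the same numbers of members, 16 and 5, with 19.4% of all genes falling and 21.7% rising, and DESeq2 called 17 and 5 (10.7% and 13.3% of its genes). Fewer members rose at lower depth or without the filter. With WC libraries cut down to the depth of EVs 14 of 33 members fell and 3 rose (16.6% and 20.2% of genes), and without a filter 19 fell and 2 rose (8.59% and 6.2%). SRPRA, SRPRB, SEC61A2, OST4 and HYOU1 did not pass the filter on low counts, and DESeq2 and the fit without a filter tested all 46.

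**Figure D1:**
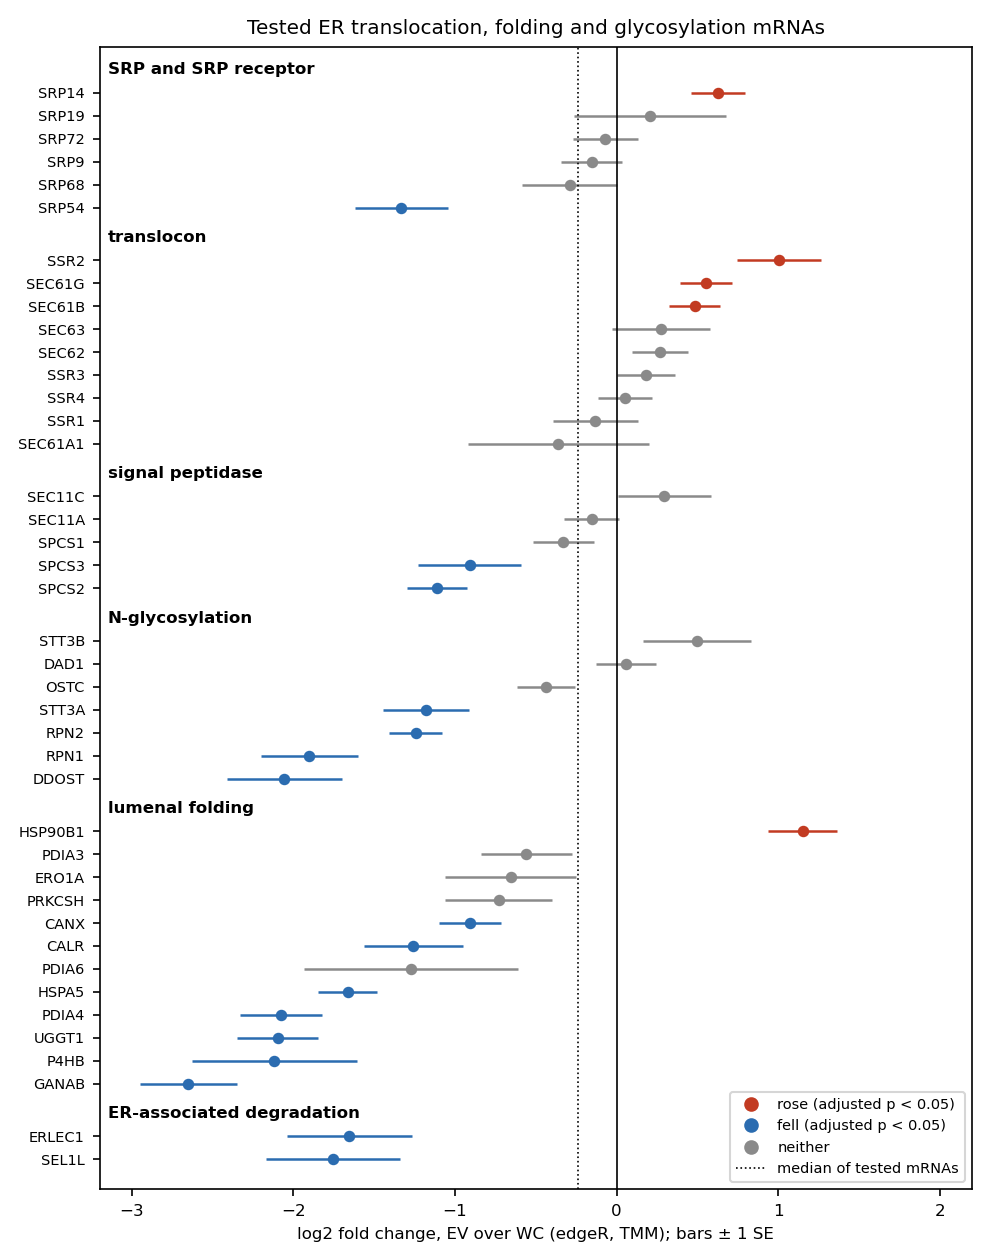
Log2 fold changes of EV over WC for the 41 tested members, grouped by role and ordered within each group; points are edgeR estimates on TMM-scaled libraries, bars are 1 SE, the solid line marks no change and the dotted line the median of the tested mRNAs at -0.24. The translocon genes lie to the right of most others, with a median of 0.27 that becomes -0.39 under total counts, and 11 of the 12 lumenal folding genes lie left of the dotted line, HSP90B1 at 1.15 being the exception.

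SRP is built on the 7SL RNA, on which SRP9 and SRP14 form the dimer that slows elongation, SRP19 helps assembly, SRP68 and SRP72 form a further dimer, and SRP54 binds the signal sequence. Of the 6 protein genes SRP14 rose, SRP54 fell and the other 4 did neither, with a median of -0.11. The level of SRP14 was 285, 290.0 and 241 CPM in WC and 332, 453 and 484 CPM in EVs. SRP14, at chr15:40035690-40039181, rose by a log2 fold change of 0.63 ± 0.17 (adjusted p = 0.0032). All 3 EV libraries were above all 3 WC libraries, but SRP14 no longer passed with WC libraries cut down to the depth of EVs (0.37, adjusted p = 0.14 by the same test) or without the filter (0.41, adjusted p = 0.090), and its fold change was -0.04 under total counts. In WC SRP54 stood at 43.97, 46.0 and 41.3 CPM, and in EVs at 21.9, 18.5 and 9.13 CPM. Every EV library was below every WC library. SRP54, at chr14:34981957-35029686, had a log2 fold change of -1.33 ± 0.29 (adjusted p = 0.00049). SRP9, the partner of SRP14, was at 322, 332 and 288 CPM in WC and 384, 199 and 251 in EVs and had a log2 fold change of -0.15 ± 0.19, the groups overlapping and EV replicate 1 being the highest of all 6 libraries. Without that library SRP9 fell by 0.51 on the log2 scale (adjusted p = 0.010, same test).

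SRP72 (-0.07 ± 0.20), SRP68 (-0.29 ± 0.30) and SRP19 (0.21 ± 0.47) did not pass the test. The receptor, which docks SRP on the membrane through its alpha and beta subunits, was near the limit of detection in the gene counts: SRPRA had 52 and 4 reads and SRPRB 28 and 5 over the 3 WC and 3 EV libraries. Per kilobase of transcript SRP14 had the highest level of the SRP genes, 243 CPM per kb in WC and 378 in EVs, followed by SRP9 with 212 and 188. By CPM SRP9 was the higher in WC, with a mean of 314 against 272. The 7SL RNA itself (RN7SL1, chr14:49586580-49586878), whose reads may be shared with its many copies, had 67.7, 89.9 and 112 CPM in WC and 32.9, 32.4 and 32.0 in EVs, a fall of 1.47 ± 0.25 on the log2 scale (adjusted p = 2.8e-05, same test).

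The SEC61 channel consists of the pore-forming alpha subunit, encoded by SEC61A1 or SEC61A2, and the small beta and gamma subunits SEC61B and SEC61G. SEC62 and SEC63 assist translocation after or late in translation, and SSR1 to SSR4 encode the translocon-associated protein (TRAP) complex beside the channel. Of the 9 tested translocon genes 3 rose, 6 did neither and 0 fell, and 0 fell also at an unadjusted p under 0.05 and with DESeq2, while 3 fell under total counts. Their median was 0.27, and 8 of the 9 were above the median of the tested mRNAs, a count that does not depend on the scaling. SEC61G was measured at 190.3, 191 and 173 CPM in WC and at 289, 249.8 and 272 CPM in EVs. SEC61B had 222, 218 and 207 CPM in the WC libraries and 287, 326 and 294 CPM in the EV libraries. For both small subunits the 3 EV libraries lay above all WC libraries. SEC61G, at chr7:54752250-54759974, had a log2 fold change of 0.55 ± 0.16 (adjusted p = 0.0065), and SEC61B had a log2 fold change of 0.48 ± 0.16 (adjusted p = 0.014). These were small changes near the limit of the test: SEC61B no longer passed without EV replicate 2 (adjusted p = 0.087), WC replicate 2 (0.089) or WC replicate 3 (0.080), SEC61G no longer passed without WC replicate 3 (0.054) or with WC libraries cut down to the depth of EVs (0.098), neither passed without the filter (0.38 and 0.22), and under total counts the fold changes were -0.18 and -0.10.

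SSR2, the beta subunit of TRAP, had the largest rise of the translocon genes. The level of SSR2 was 14.8, 18.6 and 17.7 CPM in WC and 32.9, 34.7 and 36.5 CPM in EVs. The EV libraries were about level with one another and all above WC. SSR2, at chr1:156009048-156020951, had a log2 fold change of 1.00 ± 0.26 (adjusted p = 0.0027), which was 0.35 and did not pass under total counts (adjusted p = 0.24, same test). The other TRAP genes gave -0.13 ± 0.26 (SSR1), 0.18 ± 0.18 (SSR3) and 0.05 ± 0.17 (SSR4), and SEC62 and SEC63 gave 0.27 ± 0.17 and 0.27 ± 0.30. SEC62 lay higher in each EV library than in any WC library without passing the test, and the fold changes of SSR3, SSR4, SEC62 and SEC63 were all negative under total counts. SEC63 rose with the reads of its pseudogenes added (0.70, adjusted p = 0.031, same test). SEC61A1 had few reads in this table, 6.87, 7.15 and 12.2 CPM in WC and 12.3, 4.63 and 0 in EVs, and a fold change of -0.36 ± 0.56 that did not pass. SEC61A2 had 29 reads in WC and 0 in EVs, which, against 3 reads over the EV group, is at least 1.51-fold lower. SEC61G had the highest level per kilobase of all members, 435 CPM per kb in WC and 636 in EVs. By CPM the highest mean in WC was that of RPN2, at 513 against 185 for SEC61G.

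Signal peptidase pairs a catalytic subunit, SEC11A or SEC11C, with the accessory subunits SPCS1, SPCS2 and SPCS3. Of the 5 genes SPCS2 and SPCS3 fell and 0 rose, by edgeR, also at an unadjusted p under 0.05, and by DESeq2. In WC SPCS2 stood at 170.0, 217 and 206 CPM, and in EVs at 89.2, 102 and 84.5 CPM. EVs were lower without overlap. SPCS2, at chr11:74949261-74979033, had a log2 fold change of -1.11 ± 0.19 (adjusted p = 2.5e-05). SPCS3, at 23.7, 29.4 and 34.03 CPM in WC and 20.6, 13.9 and 9.13 in EVs, had a fold change of -0.91 ± 0.32 (adjusted p = 0.023, same test), which no longer passed without EV replicate 2 (adjusted p = 0.069) or EV replicate 3 (0.12). SEC11A was measured at 157, 149 and 149.8 CPM in WC and at 136, 132 and 142 CPM in EVs. The EV libraries of SEC11A all lay just below WC, yet its fold change of -0.15 ± 0.17 did not pass (adjusted p = 0.49). SEC11A had the highest level per kilobase of the complex, 141 CPM per kb in WC and 126 in EVs. By CPM SPCS2 was the higher in WC, with a mean of 198 against 152. SEC11C (0.30 ± 0.28) and SPCS1 (-0.33 ± 0.19) did neither, SPCS1 falling by 0.51 without WC replicate 3 (adjusted p = 0.045) and by 0.54 without the filter (adjusted p = 0.039) and SEC11C being at -0.35 under total counts.

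Oligosaccharyltransferase has a catalytic subunit, STT3A in the complex at the channel and STT3B in the complex that acts after it, and shared subunits among which RPN1, RPN2, DDOST, DAD1 and OST4 are common to both, while OSTC is particular to the STT3A complex. Of the 7 tested genes RPN1, RPN2, DDOST and STT3A fell and DAD1, OSTC and STT3B did neither, and 0 rose by edgeR, also at an unadjusted p under 0.05, and by DESeq2. The median was -1.18. RPN2 had 516, 536 and 487 CPM in the WC libraries and 254, 174 and 217 CPM in the EV libraries. RPN2 had the highest level per kilobase of the complex in WC, 230.4 CPM per kb against 96.4 in EVs, and its EV libraries all lay below WC. RPN2, at chr20:37178410-37241619, had a log2 fold change of -1.24 ± 0.16 (adjusted p = 8.8e-07). The level of RPN1 was 72.1, 70.0 and 59.0 CPM in WC and 24.7, 4.63 and 20.6 CPM in EVs. In WC DDOST stood at 46.0, 33.4 and 31.1 CPM, and in EVs at 8.23, 6.94 and 11.4 CPM. Neither gene overlapped between the groups, and EV replicate 2 was the lowest of the 6 libraries for both. The EV libraries held few reads, 18, 2 and 9 of RPN1 and 6, 3 and 5 of DDOST. The fall was 1.90 ± 0.30 for RPN1 (adjusted p = 1.2e-05) and 2.06 ± 0.36 for DDOST (adjusted p = 3.9e-05, same test), the latter at chr1:20651767-20661544 and the largest of the complex.

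STT3A, at 48.8, 75.6 and 59.9 CPM in WC and 20.6, 32.4 and 32.0 in EVs, had a log2 fold change of -1.18 ± 0.27 (adjusted p = 0.0008), which was -0.87 and did not pass with WC libraries cut down to the depth of EVs (adjusted p = 0.12). Its paralog STT3B, at 9.96, 14.8 and 13.1 CPM in WC and 20.6, 13.9 and 18.3 in EVs, had 0.50 ± 0.33 and overlapped between the groups. DAD1 was nearly level, at 124, 109.5 and 92.5 CPM in WC and 115, 116 and 107 in EVs, with a fold change of 0.06 ± 0.18 that was -0.59 under total counts (adjusted p = 0.0067). OSTC, at 134, 151 and 144 CPM in WC and 121, 97.1 and 95.9 in EVs, had -0.44 ± 0.18 (adjusted p = 0.052) and passed with DESeq2 (-0.54, adjusted p = 0.019), without the filter, with thinned WC libraries and without EV or WC replicate 1. The mini-subunit gene OST4 had 23 and 9 reads over the WC and EV libraries in the gene table.

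The lumenal folding genes encode the HSP70 and HSP90 chaperones BiP (HSPA5), GRP94 (HSP90B1) and GRP170 (HYOU1), the calnexin cycle (CANX, CALR, the glucosidase subunits GANAB and PRKCSH, and UGGT1, which adds glucose back to unfolded glycoproteins), and the disulphide enzymes PDIA3, PDIA4, PDIA6, P4HB and ERO1A. Soluble residents of the lumen are returned from the Golgi by a receptor for their last residues, KDEL or a variant of it. The last 4 codons and the stop codon of the members' reference transcripts were read from GENCODE v44. The folding group was drawn up by work in the lumen, so retrieval codons among its genes are no independent result. Only the members were read, so no share over all genes is given. A codon series for K, R, H or Q, then D or E, then E and L closed 8 of the 46 coding sequences, and these 8 were all among the 13 lumenal folding genes. This pattern is narrow and leaves out related ends. HYOU1 closes with codons for N, D, E and L, and PDIA3 with codons for Q, E, D and L. A gene outside the 8 is therefore not shown to lack a retrieval signal. The 8 are listed 5′ to 3′ with the codons in capitals and the stop codon in lower case.
HSPA5: AAAGATGAGTTGtag
HSP90B1: AAAGATGAATTGtaa
CALR: AAGGACGAGCTGtag
P4HB: AAAGATGAACTGtaa
PDIA4: AAGGAAGAGCTTtga
PDIA6: AAAGATGAGTTGtga
PRKCSH: CATGACGAGCTCtag
UGGT1: CGTGAAGAATTAtga

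Of these 8 HSPA5, CALR, P4HB, PDIA4 and UGGT1 fell, HSP90B1 rose, and PDIA6 and PRKCSH did neither. The ER stress element, to which the ATF6 factor binds with NF-Y when unfolded proteins accumulate, reads CCAAT, then any 9 bases, then CCACG, and was searched on both strands of the RefSeq promoters, 250 bases before to 50 bases after each start, on GRCh38.p14. It was present in 27 of 35116 promoters (0.0769%), and in those of 5 of the 41 members that the table held, all lumenal folding genes, shown with the element's fixed letters in capitals.
CALR, chr19:12938384-12938402, minus strand: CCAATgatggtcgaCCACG
CANX, chr5:179698778-179698796, plus strand: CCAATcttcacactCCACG
HSP90B1, chr12:103930216-103930234, plus strand: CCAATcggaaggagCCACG
HSP90B1, chr12:103930321-103930339, minus strand: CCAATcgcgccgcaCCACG
HSPA5, chr9:125241391-125241409, minus strand: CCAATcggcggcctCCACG
PDIA6, chr2:10812853-10812871, minus strand: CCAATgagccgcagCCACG

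The shorter element, ATTGG and CCACG with 1 base between them, was in 19 promoters (0.0541%), among the members only in that of HYOU1, at chr11:119057274-119057284 and chr11:119057380-119057390. Outside the members, the further ER lists read below held the longer element in 4 genes (ALG12, CRELD2, ERO1B and XBP1). They held the shorter one in 2 (HERPUD1 and SDF2L1), so neither element was confined to the folding members. A match is a description of letters in this window, and no test of these shares was made. Both elements were searched as ones of the response to unfolded proteins, so matches in folding genes are no independent result. The genes that share the element and the retrieval codons did not share a direction between EVs and WC: HSPA5 and CALR fell, HSP90B1 rose and PDIA6 did not pass.

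HSPA5 was measured at 247, 324 and 308 CPM in WC and at 100.1, 90.2 and 84.5 CPM in EVs. BiP, the HSP70 that binds chains as they enter the lumen, had the highest level per kilobase of the folding genes in WC, 74.7 CPM per kb, against 23.4 in EVs, where HSP90B1 had 28.6. By CPM HSPA5 was above HSP90B1 in EVs as well, with means of 91.6 and 79.4. All EV libraries of HSPA5 lay below WC. HSPA5, at chr9:125234853-125241382, fell with a log2 fold change of -1.67 ± 0.18 (adjusted p = 5.1e-08), the lowest p of all members. HSP90B1 had 30.9, 32.9 and 42.2 CPM in the WC libraries and 72.7, 92.5 and 73.0 CPM in the EV libraries. GRP94, the lumenal HSP90, was the only folding gene that rose, and its EV libraries all lay above WC. HSP90B1, at chr12:103930107-103953931, had a log2 fold change of 1.15 ± 0.21 (adjusted p = 8.5e-05), and 0.49 under total counts, where it did not pass (adjusted p = 0.055, same test). HYOU1 had 53 and 6 reads over the WC and EV libraries.

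In the calnexin cycle CANX, CALR, UGGT1 and GANAB fell and PRKCSH did not pass. The level of GANAB was 62.9, 64.3 and 62.5 CPM in WC and 9.60, 6.94 and 13.7 CPM in EVs. In WC UGGT1 stood at 78.7, 90.4 and 80.3 CPM, and in EVs at 19.2, 20.8 and 18.3 CPM. The groups lay far apart for both genes, and the EV libraries of GANAB, with 7, 3 and 6 reads, were more scattered than those of UGGT1. GANAB, the catalytic subunit of glucosidase II at chr11:62624826-62646726, had a log2 fold change of -2.65 ± 0.30 (adjusted p = 7.8e-08), the largest fall of all members. UGGT1, at chr2:128091200-128195677, had a log2 fold change of -2.10 ± 0.25 (adjusted p = 1.6e-07). PRKCSH, the other subunit of glucosidase II, was at 22.3, 20.7 and 19.5 CPM in WC and 12.3, 16.2 and 9.13 in EVs and had -0.73 ± 0.33 (adjusted p = 0.076), with its EV libraries all below WC. CANX, the membrane-bound lectin, was at 143, 163 and 177 CPM in WC and 78.2, 104 and 77.6 in EVs and had -0.91 ± 0.19 (adjusted p = 0.00039). CALR, its soluble relative, was at 35.4, 38.3 and 34.3 CPM in WC and 13.7, 23.1 and 9.13 in EVs and had -1.26 ± 0.30 (adjusted p = 0.0016, same test).

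Among the disulphide enzymes PDIA4 and P4HB fell, and PDIA3, PDIA6 and ERO1A did not pass, although PDIA3 fell by 1.78 with the reads of its pseudogenes added (adjusted p = 1.5e-07, same test). PDIA4 was measured at 74.5, 80.4 and 91.6 CPM in WC and at 17.8, 20.8 and 20.6 CPM in EVs. Its EV libraries lay together, all below WC. PDIA4, at chr7:149003062-149028662, had a log2 fold change of -2.08 ± 0.25 (adjusted p = 2.4e-07). P4HB, the classical disulphide isomerase, was at 11.3, 19.4 and 18.0 CPM in WC and 4.12, 2.31 and 4.57 in EVs and had -2.12 ± 0.51 (adjusted p = 0.0015). Its EV libraries held only 3, 1 and 2 reads. ERO1A, the oxidase that recharges these isomerases, had -0.66 ± 0.41, PDIA3 -0.56 ± 0.28 and PDIA6 -1.27 ± 0.66. PDIA3 and PDIA6 lay lower in every EV library than in any WC library, PDIA6 with only 63 and 4 reads over the WC and EV libraries. Over the 12 tested folding genes the median was -1.26, 7 fell and 1 rose, and 11 were below the median of the tested mRNAs.

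**Figure D2:**
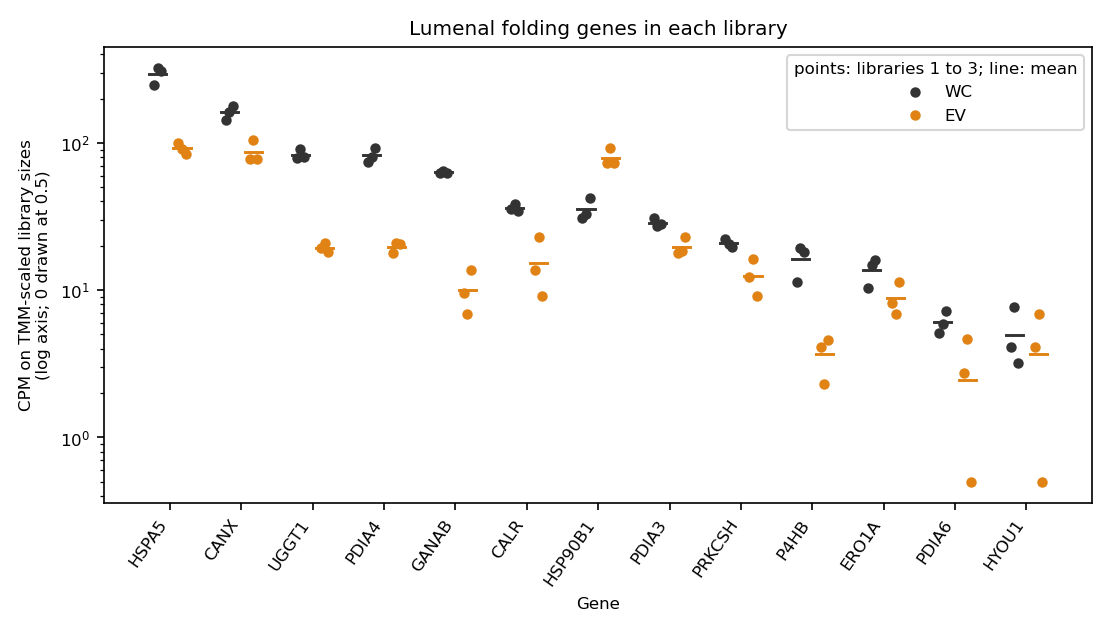
CPM of the 13 lumenal folding genes in each library on a log axis, WC in black and EV in orange, with the mean of 3 libraries as a line and values of 0 drawn at 0.5. HSP90B1 is the only gene whose EV libraries (72.7 to 92.5 CPM) all lie above its WC libraries (30.9 to 42.2 CPM), and those of HSPA5, UGGT1, PDIA4, P4HB and GANAB are among the genes that lie wholly below.

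ERLEC1, a lectin that reads the glycans of misfolded proteins, and SEL1L, the scaffold of the ubiquitin ligase that removes them, both fell. ERLEC1 had 24.7, 26.6 and 25.9 CPM in the WC libraries and 6.86, 2.31 and 15.98 CPM in the EV libraries. The level of SEL1L was 19.6, 18.1 and 26.2 CPM in WC and 5.49, 9.25 and 4.57 CPM in EVs. The EV libraries of both lay below WC and rested on few reads, 265 and 13 for ERLEC1 and 218 and 10 for SEL1L over the WC and EV libraries. ERLEC1 had the higher level per kilobase, 10.5 CPM per kb in WC and 3.43 in EVs. ERLEC1 had a log2 fold change of -1.65 ± 0.39 (adjusted p = 0.0012), and SEL1L, at chr14:81471547-81533853, had a log2 fold change of -1.75 ± 0.42 (adjusted p = 0.0013).

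The ratio of the counts of partner genes within a library does not depend on how libraries are scaled, and 15 pairs of paralogs or subunits were compared in this way, with 0.5 added to each count. The ratio HSPA5/HSP90B1 was 7.94, 9.80 and 7.28 in WC and 1.37, 0.975 and 1.15 in EVs, a difference of 7.15-fold. STT3A/STT3B was 4.83, 5.07 and 4.54 in WC and 1.00, 2.23 and 1.71 in EVs, 3.08-fold lower in EVs. DAD1/DDOST was 2.68, 3.27 and 2.96 in WC and 13.0, 14.4 and 8.64 in EVs, 3.97-fold higher. In all 3 pairs the groups were apart without overlap. The same was seen for GANAB/PRKCSH (3.73-fold lower in EVs), PDIA3/P4HB (2.501-fold higher), RPN1/RPN2 (1.89-fold lower) and SEC11A/SEC11C (1.39-fold lower). For each of these 7 the exact permutation test, two-sided, gave p = 0.1, the smallest that 3 against 3 libraries allow, and p = 0.21 after Benjamini-Hochberg adjustment over the 15 pairs, so that no ratio could pass. The other 8 pairs overlapped between the groups, among them SEC61B/SEC61G, whose mean log2 ratio was 0.22 ± 0.03 in WC and 0.16 ± 0.20 in EVs (SD, n = 3), SEC62/SEC63 with 2.62 ± 0.18 and 2.58 ± 0.55, and SRP9/SRP14 with 0.21 ± 0.04 and -0.64 ± 0.75. In the last pair EV replicate 1 was at a ratio of 1.16, within the WC range of 1.13 to 1.19, and the other 2 EV libraries at 0.440 and 0.520.

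The rest of the ER pathways was read from 5 lists with 141 genes outside the members, of which 104 were tested, 46 fell and 6 rose, with a median of -0.65. Among all tested genes 21.4% fell and 22.8% rose, and among the tested mRNAs 22.2% fell and 14.9% rose. In DESeq2 10.7% of its genes fell and 13.3% rose. Of 24 tested foldases and co-chaperones 13 fell and 0 rose (median -0.85; 1 of them above 0), among them FKBP9 (-1.78 ± 0.34), a prolyl isomerase, and ERP44 (-1.40 ± 0.27), which retains thiol-bearing proteins. Of 14 genes of the unfolded protein response 7 fell and 0 rose (median -0.92), with XBP1 (-1.67 ± 0.29), the transcription factor spliced by IRE1, and TRIB3 (-1.03 ± 0.20) having the lowest p. Of 19 other N-glycosylation genes 10 fell and 3 rose (median -0.72), but DESeq2 called only 3 falls and 1 rise among 26, the falls being near its share over all genes. ALG8 (-1.86 ± 0.33) and ALG3 (-1.05 ± 0.25), which extend the lipid-linked glycan, fell, and TMEM258 (0.64 ± 0.16), a small subunit of oligosaccharyltransferase, and NUS1 (1.21 ± 0.37) rose. Of 23 genes of other insertion routes 11 fell and 0 rose (median -0.46), led by the signal peptide peptidase HM13 (-1.59 ± 0.26) and EMC7 (-1.15 ± 0.24). Of 24 further genes of ER-associated degradation 5 fell and 3 rose (median -0.31; 4 and 1 in DESeq2), with MARCHF6 (-1.29 ± 0.23) and HERPUD1 (-1.19 ± 0.30) falling and the segregase VCP (0.91 ± 0.22) and HERPUD2 (0.82 ± 0.25) rising. The edgeR falls in this list were near the share over all tested genes. In the 3 lists without a rise DESeq2 likewise found 0, and 1 gene of the insertion routes had an unadjusted p under 0.05 upwards in edgeR.

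Cytosolic chaperones, listed as the counterpart outside the ER, were all 25 tested, and 12 rose and 0 fell in edgeR (median 0.50; 1 fell at an unadjusted p under 0.05 and 0 in DESeq2), the lowest p being those of the chaperonin subunit CCT8 (2.095 ± 0.19) and HSP90AA1 (1.17 ± 0.16). Of all tested genes 22.8% rose and 21.4% fell. Under total counts 4 of the chaperones rose and 9 fell, beside 12.2% and 51.6% of all tested genes. Their median was then -0.16, while the lumenal folding members had a median of -1.91. Measured from the median of the tested mRNAs, the cytosolic chaperones stood at 0.74 under TMM and 0.73 under total counts, and the lumenal folding members at -1.02 under both. No test of the difference between these lists was made, and both were chosen with earlier results of these data known. Pseudogenes of the cytosolic chaperones were not examined.

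**Figure D3:**
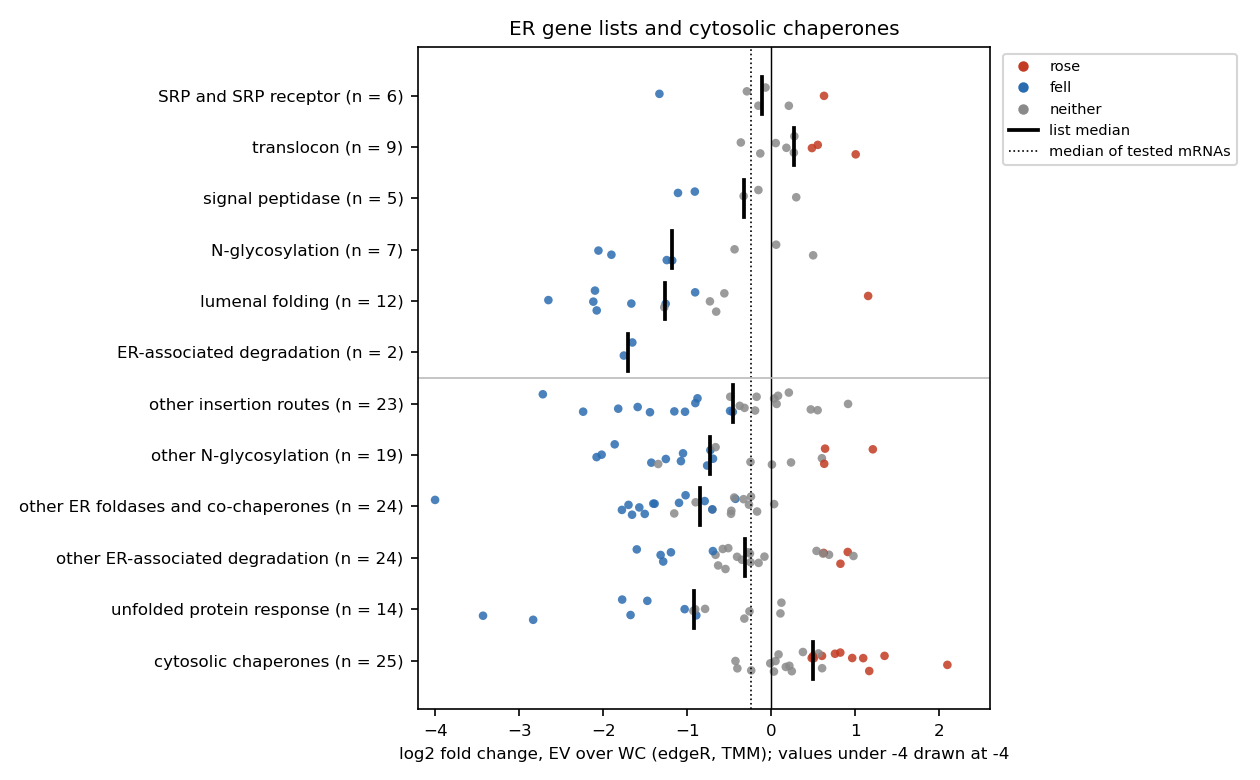
Log2 fold changes of EV over WC for the 6 groups of members (above the grey line), 5 lists of other ER genes and the cytosolic chaperones, 1 point per tested gene, coloured by call, with the list median as a bar and the median of the tested mRNAs as a dotted line. The medians run from -1.70 for the 2 degradation members and -1.26 for lumenal folding to 0.27 for the translocon and 0.50 for cytosolic chaperones, the last 2 being below 0 under total counts.

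The groups of members also differed in the length of their coding sequences, and length moved with the fold change over all mRNAs. The share that fell was 8.67% of 1084 tested mRNAs with coding sequences under 600 nt, 18.5% of 1951 from 600 to below 1200 nt, 25.5% of 2307 from 1200 to below 2400 nt and 32.3% of 1417 longer ones. Of the members 1 of 14 under 600 nt fell and 4 rose, where 37.3% of such mRNAs rose. The 4 were SRP14, SEC61B, SEC61G and SSR2, and the 1 was SPCS3. From 1200 to below 2400 nt 12 of 21 members fell and 0 rose, with a median of -1.24 against -0.39 for all mRNAs of that length. Of the 4 members of 2400 nt or more GANAB and UGGT1 fell and HSP90B1 rose. Across genes, which are not independent replicates, Spearman's rho of fold change with coding length was -0.45 over 41 members and -0.33 over 6759 mRNAs. The part of length in the differences between the groups of members was not tested.

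**Figure D4:**
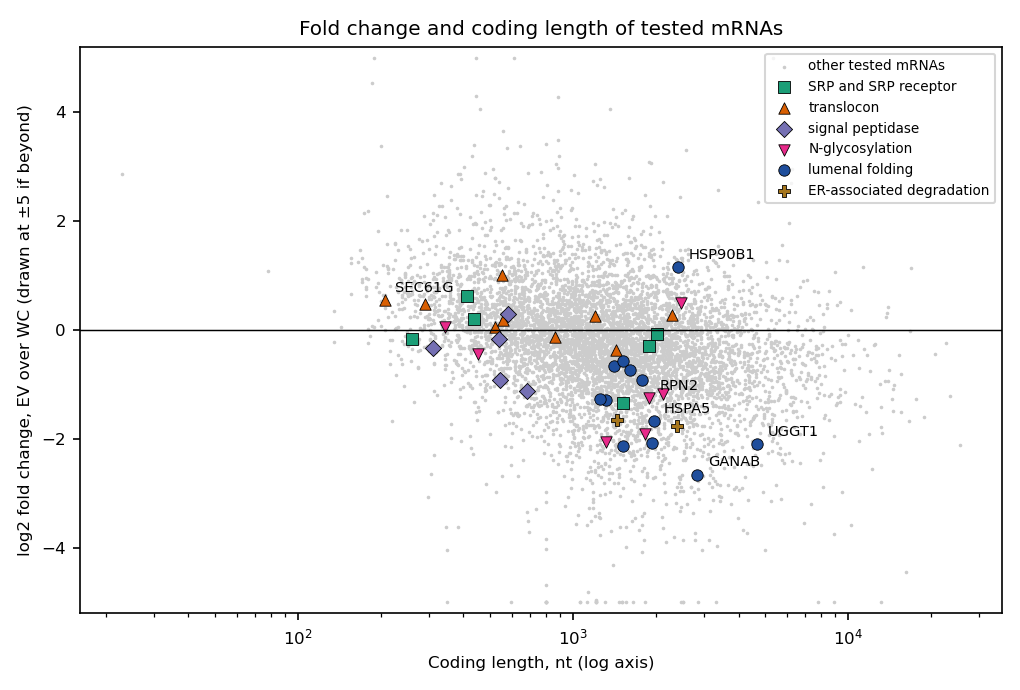
Log2 fold change of EV over WC against coding length on a log axis for the tested mRNAs (grey) and the tested members (symbols by group); fold changes beyond 5 in size are drawn at 5. Most translocon, SRP14 and DAD1 points lie at short lengths near or above 0 under TMM, and the folding and glycosylation members between 1200 and 2400 nt lie in the lower part of the grey cloud, with HSP90B1 above 0 at a similar length.

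Reads of near-identical copies can be exchanged between a gene and its processed pseudogenes, so the copies named after a member are given beside it. There were 31 for 13 members, 21 with a read and 7 tested, of which 3 rose and 2 fell, beside 22.8% and 21.4% of all tested genes. SRP9P1 had 2900 reads in WC and 341 in EVs, 89.8% and 71.6% of those of SRP9, with a fold change of -0.49 ± 0.21 (adjusted p = 0.061). SPCS2P4 had 91.3% and 87.7% of the reads of SPCS2 and fell with it (-1.18 ± 0.19, adjusted p = 1.6e-05), and SRP14P2 had 29.2% and 32.2% of those of SRP14 and rose with it (0.78 ± 0.22, adjusted p = 0.0058). HSPA5P1 had 2.497% and 6.04% of the reads of HSPA5. PDIA3P1 had 331, 428 and 357 reads in WC and 20, 7 and 6 in EVs, 381% and 107% of those of PDIA3, and fell by 2.42 ± 0.25 on the log2 scale (adjusted p = 2.1e-08, same test). With the reads of the copies added PDIA3 fell (-1.78, adjusted p = 1.5e-07) and SEC63 rose (0.70, adjusted p = 0.031), so that 17 members fell and 6 rose, while the calls of the other 39 tested members held. SEC63P1 had 15.5% and 55.9% of the reads of SEC63, 28 and 19 reads over the WC and EV libraries, and rose by 2.09 ± 0.47 (adjusted p = 0.00078, same test). SRP9, SPCS2, SRP14, PDIA3 and SEC63 are therefore uncertain as single loci. If a read was counted at both a gene and its copy, the fit with added reads counts it again. That fit is thus not an independent check of the calls.

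The authors' isoform table, made with the FLAIR tool from the same reads, counts 113 isoforms for 41 of the members, classed by predicted reading frame as 83 productive, 25 with a premature stop and 5 without a start. SEC61A2, SEC63, STT3B, HYOU1 and UGGT1 had none in it. The most abundant isoform was productive in 40 of the 41. Neither the classes nor this count were set beside those of all genes, so they are not shown to be a trait of the members. The sum of the authors' mean isoform counts exceeded the mean normalized gene count for 10 members (24.4%), where it did so for 12.2% of 4124 tested mRNAs with an isoform. The difference was largest for OST4, at 423.6 by isoforms and 5.05 by genes, 83.9 times as much. It was 6.36 times for SRP19, 5.64 for PDIA6, 5.51 for P4HB, 3.85 for SRPRA, 3.52 for CALR, 3.10 for SRPRB, 3.01 for SSR2, 1.81 for PDIA3 and 1.60 for DDOST. In 8 of these 10 more than 10% of the exon bases of the reference transcript lie within exons of another annotated gene, as 34.2% of OST4 do in AGBL5 and 45.3% of PDIA6 in ATP6V1C2, and so they do in 4 of the other 31. The study left reads over several genes unassigned, and their part in this difference was not tested. OST4, SRPRA and SRPRB did not pass the filter, and the fold changes given above for the rest of those 10 genes rest on the smaller gene counts. In the other direction RPN2 had 476.5 by genes and 29.2 by isoforms, 16.3 times as many by genes.

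**Figure D5:**
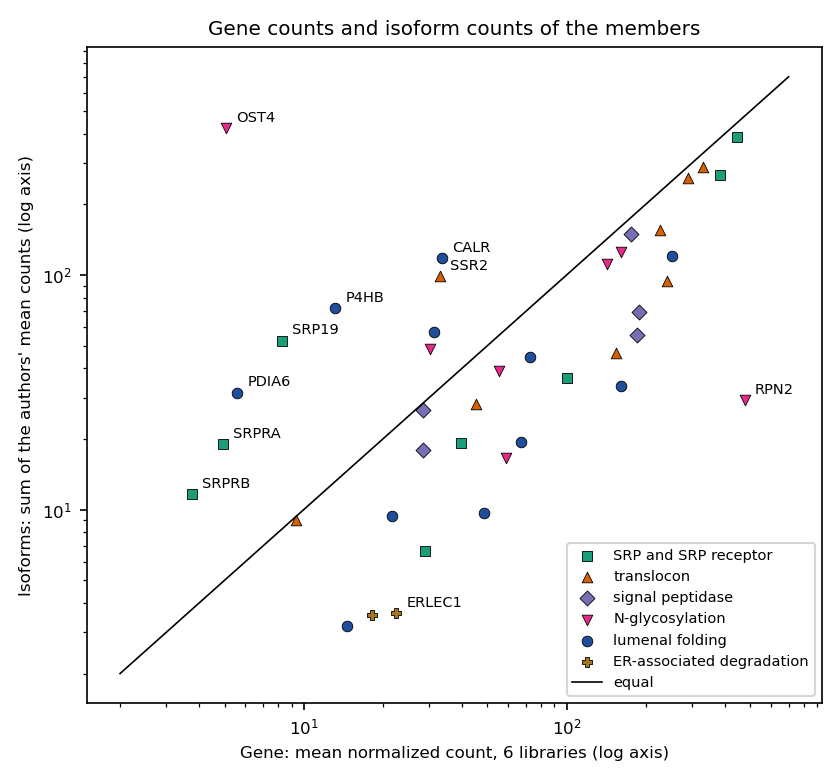
Mean normalized count of each member over the 6 libraries in the gene table (horizontal, log axis) against the sum of the authors' mean isoform counts (vertical, log axis), for the 41 members with an isoform, with symbols by group and a line of equality. OST4 lies far above the line (423.6 against 5.05) and RPN2 far below it (29.2 against 476.5).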

How the data were processed

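Nanopore reads of poly(A)-primed, PCR-amplified cDNA were base-called by the authors, mapped to hg38 with minimap2 and counted per GENCODE gene with featureCounts, in the mode for long reads. The tests used the deposited table of the authors' unnormalized gene counts. The deposited signal values, which are the authors' gene counts or FLAIR isoform counts divided by DESeq2 size factors, served for gene symbols and for comparing the gene and isoform tables. The BED file of the authors' isoform models holds a score from the mapping, which was not interpreted, and its block lengths and frame classes were used. The deposited tables also hold the authors' fold changes, test statistics and p-values, which were not used. The strand setting and the treatment of reads with several placements are not given in the sources used here.

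The members and lists were chosen with earlier results of these data known. Of 68247 lines 68201 genes remained after 1 line per gene ID was kept. The test was edgeR 4.0.16 under R 4.3.3 (TMM, its expression filter, robust quasi-likelihood fit, no block, all 6 libraries), and 8716 genes were tested. The SE is the size of the log2 fold change divided by the square root of the F statistic. CPM are on TMM-scaled library sizes, per kilobase of the reference transcript of GENCODE v44 where stated, and positions are on hg38 from the same annotation. Libraries with the same replicate number came from the same cultures and flow cell, according to the study's methods, and their deviations from the group means correlated at 0.062, 0.024 and 0.0044. P-values measure the spread between these 3 libraries per group. Every member was named, and values per library were given for the largest rise, the largest fall and the highest level per kilobase in each role and for the 6 lowest p-values. In each further list up to 2 genes that rose and 2 that fell with the lowest p were named, as were the 5 pseudogenes with the most reads. SEC63P1, OSTC, CANX, CALR and other members with values per library beyond this rule were added after their values were seen. Ratios within a library had 0.5 added to each count. The alternatives were DESeq2 1.42.0, other scaling and filters (none, or a mean of 5 counts), a replicate block, thinned WC libraries, added pseudogene reads and each library left out. Retrieval codons were searched in nucleotide sequences. Tables and figures were made in Python 3.11.15 with pandas 2.3.3, numpy 2.4.6, matplotlib 3.10.9 and scipy 1.17.1.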

Additional observations from a re-analysis of the deposited data

How the results depend on the processing

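Scaling mattered most. With total counts 1066 of all tested genes rose and 4494 fell, and of the members 0 rose and 30 fell. Under it 0 other N-glycosylation genes rose, 20 other foldases fell, 0 rose and 16 fell among other genes of ER-associated degradation, 12 genes of the unfolded protein response fell, and 4 cytosolic chaperones rose and 9 fell. Its fold changes were reversed for SRP14 (-0.037), SRP19 (-0.44), SEC61B (-0.18), SEC61G (-0.10), SEC62 (-0.39), SEC63 (-0.38), SSR3 (-0.47), SSR4 (-0.61), SEC11C (-0.35), DAD1 (-0.59) and STT3B (-0.15). With WC libraries cut down to the depth of EVs, where fewer genes could be tested, 950 genes rose and 784 fell, 3 members rose, and SEC63 (-0.029), SSR3 (-0.013), SSR4 (-0.028) and DAD1 (-0.055) were reversed. Without the filter 2 members rose and SSR3 (-0.023), SSR4 (-0.16) and DAD1 (-0.15) were reversed. DESeq2 found 1 rise and 3 falls among other N-glycosylation genes and 1 rise in other ER-associated degradation, and reversed SSR4 (-0.062) and DAD1 (-0.054). The cause of these differences was not tested. Leaving out 1 library at a time gave 3 to 5 members that rose and 15 to 18 that fell, with the 3 found without WC replicate 3, where SEC61B and SEC61G no longer passed, and over all genes 1497 to 2008 rises and 1395 to 1868 falls. It reversed SRP9 (-0.51 to 0.028), SRP72 (-0.25 to 0.036), SEC61A1 (-1.94 to 0.093), SSR3 (-0.10 to 0.29), SSR4 (-0.052 to 0.091) and DAD1 (-0.12 to 0.10), and the log2 ratio differences of SEC61B/SEC61G (-0.17 to 0.025), SEC62/SEC63 (-0.25 to 0.27) and ERLEC1/SEL1L (-0.94 to 0.65), none of which had passed. With the replicate block 5 members rose and 16 fell, no call of a member changed, and no other count moved by more than 1.5 times. Scaling by RLE size factors and a mean of 5 counts as the filter changed no call of a member. The 5 members below the expression filter had 23 to 53 reads over the WC libraries and 0 to 9 over the EV libraries, and all 46 were tested by DESeq2 and without the filter.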

Other observations

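In the isoform table some members had a large part of their isoform counts in forms classed as not productive. The most abundant isoform of RPN2 in it, at a mean of 13.2 normalized counts, was classed as having a premature stop, and productive isoforms made up 54.9% of the RPN2 isoform counts. For SSR4 4 of 6 isoforms were of that class and productive ones made up 49.4%, and for HSP90B1 3 of 5 were and productive ones made up 66.5%. These are the authors' means over all 6 libraries, so a share in WC or EVs was not computed. The isoform counts summed to 29.2 for RPN2, 94.2 for SSR4 and 44.6 for HSP90B1, against mean gene counts of 476.5, 241.3 and 72.7. The shares therefore describe the isoform counts alone, which for RPN2 were far below the gene counts. Outside the naming rule for copies, HSP90B2P had 20, 13 and 13 reads in WC and 9, 8 and 0 in EVs, and HSP90B3P had 0, 1 and 1 in WC and 0, 3 and 0 in EVs. These copies were looked up after the value of HSP90B1 was seen.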
